A study of Mus musculus with 11 samples.

Results

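ZIC2 and OTX2 peaks were compared in epiblast stem cells (EpiSCs) that had been kept without activin, using the complete peak lists of both transcription factors (TFs) from that culture. The members were 109062 ZIC2 peaks and 113831 OTX2 peaks on chromosomes 1 to 19 and X, which made 222893 of the 1004445 peaks in the 10 lists of the series. A further 243 ZIC2 and 210 OTX2 peaks lay on other sequences and were left out. A peak was called shared when at least 1 bp of it lay inside a peak of the other TF, and unshared otherwise. EpiSCs of the 129/Sv strain were grown without feeder cells with activin at 20 ng/ml and Fgf2 at 10 ng/ml, and for the activin-free libraries activin was withdrawn for the last 18 h before harvest. The labels give withdrawal of activin alone, with no word on Fgf2, as the difference from the activin culture, and both cultures carried the same kind of plasmid. The cells were transiently transfected with a pCAGGS plasmid that encodes 1 TF joined to BLRP, a short peptide that the co-expressed bacterial ligase BirA tags with biotin, and the tagged chromatin was collected on streptavidin beads. The lists therefore report an introduced TF beside the cells' own protein. Each TF had 1 library in each culture, so that no value has a replicate error and read depth is unknown. The 95% Wilson intervals given with shares cover counting error only.

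ZIC2 is a zinc finger protein of the ZIC family, known for its part in forebrain patterning, and OTX2 is a homeodomain protein that is needed for the anterior epiblast and the head. Both are present in the epiblast after implantation, the tissue that EpiSCs resemble. Activin signals through the same receptors and SMAD proteins as Nodal, and this pathway maintains EpiSCs and promotes mesendoderm, whereas its loss favours neural fates. Peaks of different TFs over the same bases are commonly read as candidate regulatory regions, although a peak list from a population of cells does not tell whether 2 proteins were bound to the same DNA molecule.

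The sequences below show what shared and unshared sites looked like. Each is 200 bp of the mm9 plus strand with every GGATTA or GGTAAT (homeodomain sequences of the OTX2 type) and every CCTGCTG (a ZIC sequence) in capitals on either strand, and the remaining bases in lower case. The first 3 are centred on the OTX2 midpoint of the pair with the highest lower score near a gene that the study discusses. The last 2 are centred on the highest-scoring unshared peaks near a gene of the signalling or pluripotency lists, leaving out 3 ZIC2 peaks that ranked before it by score and nearness and whose window touched an exon.
Fgf5, shared, chr5:98712717-98712916, intergenic: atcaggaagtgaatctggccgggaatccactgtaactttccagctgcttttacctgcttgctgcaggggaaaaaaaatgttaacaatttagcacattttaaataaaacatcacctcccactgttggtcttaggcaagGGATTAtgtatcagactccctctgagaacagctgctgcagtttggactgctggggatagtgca
Nodal, shared, chr10:60869013-60869212, intergenic: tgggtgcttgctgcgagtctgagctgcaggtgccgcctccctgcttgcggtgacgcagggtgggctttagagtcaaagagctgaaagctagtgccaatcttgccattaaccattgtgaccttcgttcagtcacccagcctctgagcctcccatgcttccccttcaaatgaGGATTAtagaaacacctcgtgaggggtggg
Otx2, shared, chr14:49321146-49321345, intergenic: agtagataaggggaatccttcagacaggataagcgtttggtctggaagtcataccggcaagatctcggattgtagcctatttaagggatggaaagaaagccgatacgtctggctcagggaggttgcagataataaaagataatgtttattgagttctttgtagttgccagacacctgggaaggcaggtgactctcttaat
Fgf4, ZIC2 without OTX2, chr7:152046975-152047174, promoter: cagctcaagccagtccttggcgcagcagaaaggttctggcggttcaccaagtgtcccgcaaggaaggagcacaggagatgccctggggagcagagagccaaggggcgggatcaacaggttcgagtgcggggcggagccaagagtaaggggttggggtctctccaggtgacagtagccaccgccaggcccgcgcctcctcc
Dkk1, OTX2 without ZIC2, chr19:30580103-30580302, intergenic: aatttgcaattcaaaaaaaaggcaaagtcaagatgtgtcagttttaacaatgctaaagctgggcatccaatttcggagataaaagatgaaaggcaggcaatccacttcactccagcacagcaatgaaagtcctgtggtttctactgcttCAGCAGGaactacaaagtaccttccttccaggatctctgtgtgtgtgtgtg
The midpoint of the shared bases lay 29.758 kb downstream of the TSS (transcription start site) at Fgf5 and 11.798 kb upstream at Nodal. The Fgf5 and Nodal windows each held 1 GGATTA. At Otx2 the window held none of the motifs. The ZIC2 peak at Fgf4 had a score of 3100 and a window with 64.5% G and C but no CCTGCTG, while the OTX2 peak near Dkk1 had a score of 1633.9 and a window with 42% G and C and 1 reversed CCTGCTG.

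The coding exons of the 5 TF genes were examined first, because DNA of a TF's plasmid can give signal over the exons of that TF. The ZIC2 list covered 100% of the coding bases of Zic2 and the OTX2 list 100% of those of Otx2, both with a score of 3100. The ZIC2 list had no peak over the Otx2 coding exons, but the OTX2 list covered 100% of the Zic2 coding bases with a score of 1449.88. Every one of the 5 activin-free lists covered at least 93.4% of the Zic2 coding bases. The SOX2, POU5F1 and POU3F1 lists covered 63.0%, 63.2% and 69.4% of the Otx2 coding bases. The source of signal over the exons of a TF that the plasmid did not encode was not tested. There were 6 overlapping pairs that touched a coding exon of these genes, and they were left out of the sites named by score. They stayed in all counts of peaks, pairs and genes.

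ZIC2 peaks scored higher and were narrower than OTX2 peaks. The score, which MACS1.4 derives as 10 times the negative decadic logarithm of its p-value, had a median of 198.65 for ZIC2 (quartiles 91.6 and 554) and 115.22 for OTX2 (72.2 and 216). It was 50 or more for every peak and reached a ceiling near 3100. The median width was 815 bp for ZIC2 and 1034 bp for OTX2, so that the lists covered 108 Mb and 132 Mb, respectively.

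Shared peaks made up 12.7% of the ZIC2 list (13851 peaks, interval 12.5 to 12.9%) and 12.0% of the OTX2 list (13707 peaks, 11.9 to 12.2%). When the OTX2 list was rotated along each chromosome 1000 times, on average 9.55% of ZIC2 peaks (SD 0.213, range 8.92 to 10.2%) met an OTX2 peak, and the observed share was 1.33 times that mean. From the OTX2 side the rotations gave 8.74% (SD 0.189, range 8.14 to 9.34%) and a ratio of 1.38. The observed share was thus above every rotation in both directions. Where the overlap had to cover 50% of each peak, 3.34% of ZIC2 peaks were shared and the ratio was 1.15. The same comparison of the activin culture gave 14.8% of ZIC2 peaks against 8.03% in rotations, a ratio of 1.84, and 17.8% of OTX2 peaks against 9.43%, a ratio of 1.89. The cultures were not tested against each other, since each had 1 library of each TF. In the 50000 highest-scoring peaks of each list, which removes the difference in list length, the ratios were 1.57 without activin and 2.22 with it. The median width of OTX2 peaks was 1034 bp in the activin-free list and 803 bp in the other, and its part in the ratios was not tested.

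The overlapping peaks formed 14625 pairs, as 771 of the shared ZIC2 peaks met more than 1 OTX2 peak. A pair had a median of 484 bp in common (quartiles 279 and 672 bp), and all shared bases added up to 7.26 Mb, or 6.73% of the bases in ZIC2 peaks and 5.50% of those in OTX2 peaks. The midpoints of a pair were typically well apart, with a median distance of 589 bp. They lay within 200 bp of each other in 16.5% of pairs and over 500 bp apart in 58.2%. The ZIC2 peak lay wholly inside the OTX2 peak in 16.9% of pairs, and the reverse held for 5.07%. Near the limit of the definition, 588 pairs had under 50 bp in common, and 559 ZIC2 and 546 OTX2 peaks counted as unshared lay under 50 bp from the other TF.

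The extent of overlap varied with the distance to genes. Of the 20821 ZIC2 peaks with a midpoint within 1 kb of a TSS, 23.3% (22.7 to 23.9%) overlapped an OTX2 peak, which was 2.12 times the rotation mean of 11.0%. The share fell to 11.4% at 1 to 5 kb, 10.2% at 5 to 50 kb and 8.77% beyond 50 kb, where the ratios were 1.17, 1.10 and 1.03. From the OTX2 side the gradient was steeper. Of the 7559 OTX2 peaks within 1 kb of a TSS 49.4% were shared (48.3 to 50.6%), with a ratio of 5.32, against 17.3% at 1 to 5 kb, 8.71% at 5 to 50 kb and 5.02% of the 28460 peaks beyond 50 kb, where the ratio was 0.617. OTX2 peaks far from genes thus met ZIC2 less often than the rotated lists did. The rotations move peaks without regard to genes, so that these ratios include whatever both lists share with gene position.

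**Figure D1:**
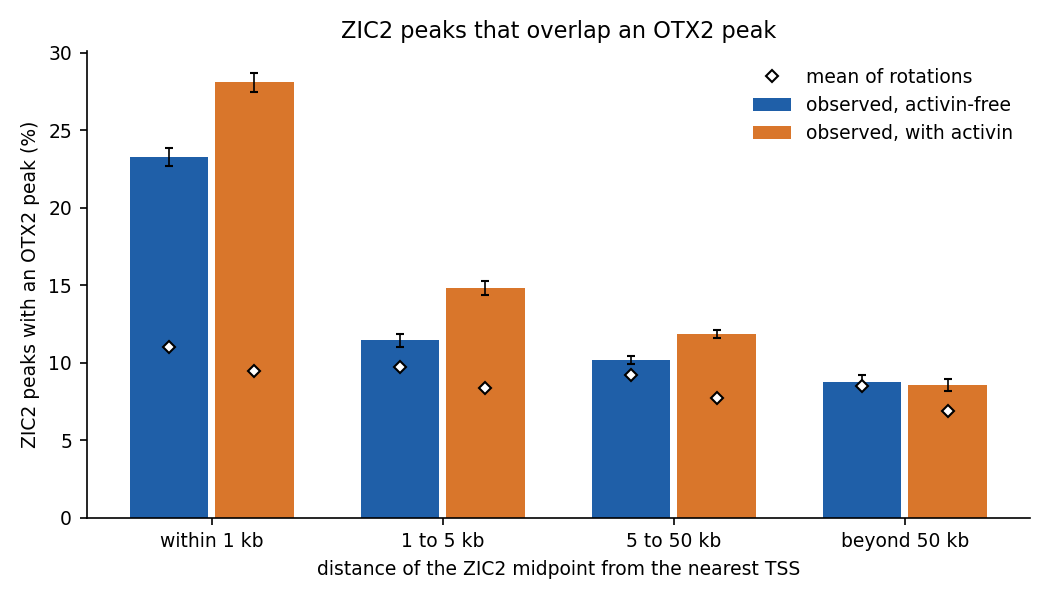
Share of ZIC2 peaks that overlap an OTX2 peak (vertical axis, %) by distance of the ZIC2 midpoint from the nearest TSS, without activin (blue) and with activin (orange). Bars are observed shares with 95% Wilson intervals (counting error only) and diamonds are means of 1000 rotations; the activin-free bars fall from 23.3% to 8.77% and meet their diamond beyond 50 kb.

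In the activin culture the shares by distance were 28.1%, 14.8%, 11.8% and 8.56% of ZIC2 peaks, and the ratios 2.96, 1.77, 1.53 and 1.24. The order of the classes was the same in both cultures, and the share beyond 50 kb was nearly equal (8.77% without activin and 8.56% with it) although the rotation means differed (8.51% and 6.89%).

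Shifts of the OTX2 list by fixed distances gave a closer background than rotations. For ZIC2 peaks within 1 kb of a TSS the share was 23.3% unshifted, 17.6% after a shift of 5 kb, 15.2% after 100 kb and 12.8% after 1000 kb, each the mean of both directions. For ZIC2 peaks beyond 5 kb of a TSS it was 9.83% unshifted, 8.45% after 5 kb, 8.87% after 10 kb, 10.5% after 100 kb and 10.1% after 1000 kb. Away from genes the unshifted overlap was therefore above that of nearby positions, but under that of positions 100 kb or 1000 kb away. In the activin culture the distal share was 11.0% unshifted and 9.32%, 9.71%, 10.8% and 9.79% after the same shifts, so that it was above all of them there.

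The positions of OTX2 midpoints around ZIC2 midpoints separated promoters from distal sites. At ZIC2 peaks within 1 kb of a TSS, the central 200 bp held 175 OTX2 midpoints, 0.568 times the mean of bins 4000 to 5000 bp away, whereas the bin with the highest count, at −1100 to −1000 bp, had 1.78 times that mean. At ZIC2 peaks beyond 5 kb of a TSS the central 200 bp held 774 OTX2 midpoints, 1.29 times the mean at 4000 to 5000 bp. OTX2 midpoints at promoters thus flanked the ZIC2 midpoint, and at distal sites they centred on it. The activin culture had the same shape, with central values of 0.777 at promoters and 1.48 at distal sites.

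**Figure D2:**
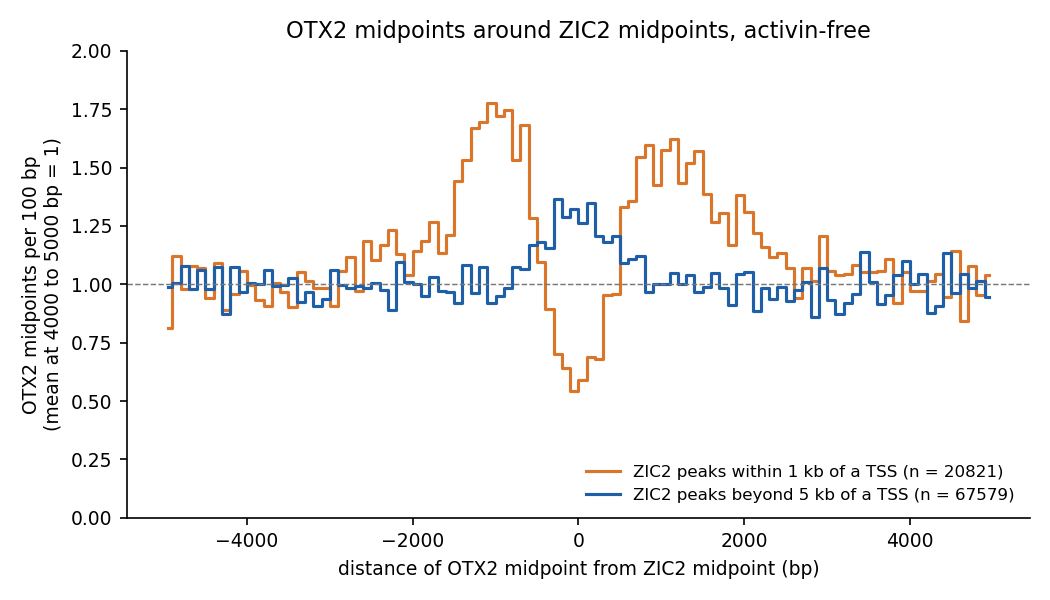
OTX2 midpoints per 100 bp (vertical axis, relative to the mean at 4000 to 5000 bp) against the distance from the ZIC2 midpoint in bp, without activin. The promoter curve (orange, ZIC2 peaks within 1 kb of a TSS) dips to 0.568 over the central 200 bp between shoulders of up to 1.78, and the distal curve (blue, beyond 5 kb) rises to 1.29 over the central 200 bp.

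A view from the genes over all peaks of each list gave the same arrangement without reference to overlap. Around the most 5′ TSS of 22350 protein-coding genes, ZIC2 midpoints had their highest count just inside the gene, in the bin from 100 to 200 bp downstream, with 99.5 midpoints per 1000 TSSs or 11.7 times the mean at 4 to 5 kb. OTX2 midpoints were fewest at the start itself, where the central 200 bp held 0.710 times the mean at 4 to 5 kb. They were most numerous at −700 to −600 bp, with 12.8 per 1000 TSSs (1.82 times), and downstream at 1200 to 1300 bp (1.62 times). The split into shared and unshared peaks does rest on overlap. An OTX2 peak near the TSS, where ZIC2 midpoints were densest, is by construction more readily called shared. Unshared OTX2 peaks reached at most 1.10 times the mean within 2 kb upstream, and their count over the central 200 bp was 0.308 times the mean at 4 to 5 kb. Unshared ZIC2 peaks kept the maximum at 100 to 200 bp, with 68.0 midpoints per 1000 TSSs against 31.5 for shared ones. In numbers, 12495 ZIC2 midpoints lay in the 2 kb downstream and 5968 in the 2 kb upstream, against 3720 and 4506 OTX2 midpoints. ZIC2 midpoints were thus more numerous downstream of the most 5′ TSS and OTX2 midpoints upstream. Any further TSS of a gene lies downstream of its most 5′ one by construction, and the part of this was not tested.

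**Figure D3:**
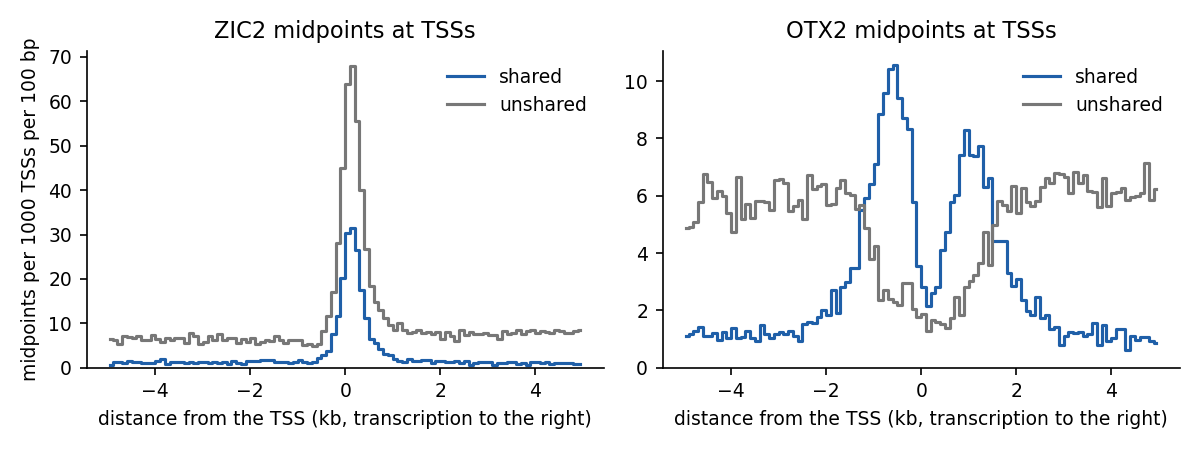
Midpoints of ZIC2 peaks (left) and OTX2 peaks (right) per 1000 TSSs and 100 bp (vertical axes, with different scales) against the distance in kb from the most 5′ TSS of 22350 protein-coding genes, transcription to the right. Shared peaks are blue and unshared peaks grey. Shared OTX2 midpoints form shoulders on both sides of the TSS, and unshared OTX2 midpoints are fewest between these shoulders.

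The same TSS distances were also read by class, which restates the contrast above and is no separate result. Of the shared ZIC2 peaks 35.0% (34.2 to 35.8%) had a midpoint within 1 kb of a TSS, against 16.8% (16.5 to 17.0%) of unshared ones, and of the OTX2 peaks 27.3% (26.5 to 28.0%) against 3.82% (3.70 to 3.94%). Within 5 kb the shares were 52.1% and 36.0% for shared and unshared ZIC2 peaks, and 53.2% and 20.8% for OTX2 peaks. With the overlap of 50% of each peak, the ZIC2 classes nearly met, at 40.3% and 38.0%, and the OTX2 classes stayed apart, at 40.4% and 24.2%. The median distance to a TSS was 4.36 kb for shared and 9.96 kb for unshared ZIC2 peaks, and 4.05 kb and 18.6 kb for OTX2 peaks. Midpoints in coding exons were uncommon, with 2.22% of shared and 4.57% of unshared ZIC2 peaks, and 0.613% and 0.703% of OTX2 peaks. Introns held 28.9% of shared and 38.3% of unshared ZIC2 peaks, and 35.7% and 45.7% of OTX2 peaks.

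Shared ZIC2 peaks had higher scores than unshared ones, with medians of 315.18 and 187.87, a ratio of 1.68. Peaks that met the rotated OTX2 list also scored higher, with a ratio of 1.34. For OTX2 the medians were 141.19 and 112.5, a ratio of 1.26 against 1.13 in rotations. Where every peak was cut to 500 bp around its midpoint before the overlap was called, the ZIC2 ratio turned to 0.942 and the OTX2 ratio was 1.10. Among peaks of like width the contrast was smaller. It was 1.06 for ZIC2 peaks up to 600 bp wide and reached 1.27 for those of 1000 to 1500 bp, and for OTX2 it lay between 1.03 and 1.13 over all width bins. A score of 1000 or more was reached by 23.1% of shared and 13.2% of unshared ZIC2 peaks, and by 2.68% and 0.878% of OTX2 peaks. The share of ZIC2 peaks that overlapped OTX2 rose from 9.21% in the lowest sixth of ZIC2 scores to 20.0% in the highest, and the ratio to rotations from 1.19 to 1.56. For sixths of the OTX2 scores the share rose from 9.46% to 17.7% and the ratio from 1.27 to 1.62.

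Width differed little once the rotations were taken into account. Shared and unshared ZIC2 peaks had median widths of 916 and 804 bp, a ratio of 1.14 against 1.12 in rotations. OTX2 peaks had 1089 and 1027 bp, a ratio of 1.06 against 1.05. The 500 bp windows turned both ratios, to 0.928 and 0.989, and an overlap of 50% of each peak turned that of OTX2 to 0.968. The 6538 OTX2 peaks over 2000 bp wide were shared in 22.0% of cases, against 11.4% of the 107293 narrower ones, and 60.6% of the shared broad ones lay within 5 kb of a TSS.

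The ratio also varied between chromosomes. On chromosome 11 13.9% of ZIC2 peaks were shared and the rotations gave 13.8%, a ratio of 1.01. On chromosome 3 17.3% were shared against 8.52% (2.03), and on the X chromosome 8.70% of 1930 peaks against 3.93% (2.21). The observed shares thus spanned a smaller range than the rotation means.

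The sequence under the midpoints followed the TF of the list. CCTGCTG on either strand occurred in the 200 bp around 19.1% (18.5 to 19.8%) of shared and 21.2% (20.9 to 21.4%) of unshared ZIC2 midpoints, against 5.31% and 6.57% of windows 1000 bp to the sides. GGATTA occurred at 18.0% (17.3 to 18.6%) of shared and 22.2% (22.0 to 22.5%) of unshared OTX2 midpoints, against 7.89% and 8.55% at the sides. GGTAAT was less frequent, at 6.40% and 7.58% of shared and unshared OTX2 midpoints. These motifs do not contain one another, and in 255579 windows of 200 bp spread over the genome CCTGCTG was found in 4.01%, GGATTA in 7.98% and GGTAAT in 5.82%. GGATTA was therefore less frequent at shared than at unshared OTX2 midpoints, and this was so within 1 kb of a TSS (17.6% and 22.0%) and beyond 5 kb (18.6% and 22.5%). CCTGCTG was found at 11.0% of shared and 14.9% of unshared ZIC2 midpoints within 1 kb, but at 23.9% and 22.9%, with overlapping intervals, beyond 5 kb.

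At the midpoints of the other TF's peaks, taken at all distances from genes, CCTGCTG was slightly above its flanks and GGATTA below them. CCTGCTG was found at 8.18% of shared and 4.17% of unshared OTX2 midpoints, with 6.42% and 3.95% at the sides. Within 1 kb of a TSS it was not above its flanks, at 5.67% and 4.13%, with 6.02% and 4.87% at the sides. GGATTA was found at 5.85% of shared and 3.59% of unshared ZIC2 midpoints, with 9.70% and 7.54% at the sides. Both motifs, each within 100 bp of its own TF's midpoint, occurred in 529 of the 14625 pairs (3.62%), and neither in 67.0%. Of the pairs with the ZIC2 midpoint beyond 5 kb of a TSS 4.59% had both, against 1.97% of those within 1 kb. GGATTA alone was counted at the OTX2 midpoint in 18.5% and 17.0% of these pairs, and CCTGCTG at the ZIC2 midpoint in 23.8% and 10.8%. Whether the motifs met more often than these single shares give was not tested. The Fgf5 and Nodal windows printed above are examples of pairs with GGATTA on the OTX2 side.

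Base composition separated the lists more clearly than it separated the classes. The median share of G and C in 200 bp around the midpoint was 55.5% for shared and unshared ZIC2 peaks alike, 45.5% for shared OTX2 peaks and 41% for unshared OTX2 peaks. Shared ZIC2 peaks within 1 kb of a TSS had a median of 65.5% and a mean of 16.2 CpG per window, and unshared ones there 61% and 11.3. Shared ZIC2 peaks beyond 5 kb had 53% and unshared ones 55%. As the motifs differ in composition, its part in the motif shares was not tested.

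Other TFs of the activin-free culture were found at shared sites to unequal degrees. SOX2, an HMG-box TF of neural and pluripotent cells, had a peak at 14.7% (14.1 to 15.3%) of shared and 3.46% (3.34 to 3.58%) of unshared ZIC2 peaks, where rotations of the SOX2 list gave 6.37% and 5.86%. At OTX2 peaks the SOX2 shares were 16.3% and 12.0%, against 6.90% and 6.45%. SOX2 was therefore above its rotations at shared peaks and at unshared OTX2 peaks, and below them at unshared ZIC2 peaks. By distance, SOX2 had a peak at 18.2% of shared and 6.50% of unshared ZIC2 peaks within 1 kb of a TSS, and at 13.6% and 3.09% beyond 5 kb, for which no rotations were made.

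The POU-domain TFs behaved differently from SOX2. POU5F1, the pluripotency TF also known as OCT4, had a peak at 6.27% of shared and 3.87% of unshared ZIC2 peaks, both below the rotation means of 10.5% and 9.83%. POU3F1, a POU TF of the epiblast and neural lineage, had a peak at 4.66% and 1.49%, against 9.45% and 8.99%. At unshared OTX2 peaks POU5F1 was found at 12.3% and POU3F1 at 12.2%, more than the 8.62% and 6.02% at shared OTX2 peaks and above their rotation means of 10.7% and 9.72%. For pairs, a further TF was counted only where its peak met the shared bases, not elsewhere in either peak. On this count 83.5% of the 14625 pairs overlapped none of the 3 further TFs. Another 13.2% overlapped 1, 2.50% overlapped 2 and 0.807% (118 pairs) overlapped all 3. The median distance between the ZIC2 and OTX2 midpoints was 605 bp in the first of these classes and 282.5 bp in the last. A longer shared stretch is met more readily by a further TF, and its part in this difference was not tested.

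**Figure D4:**
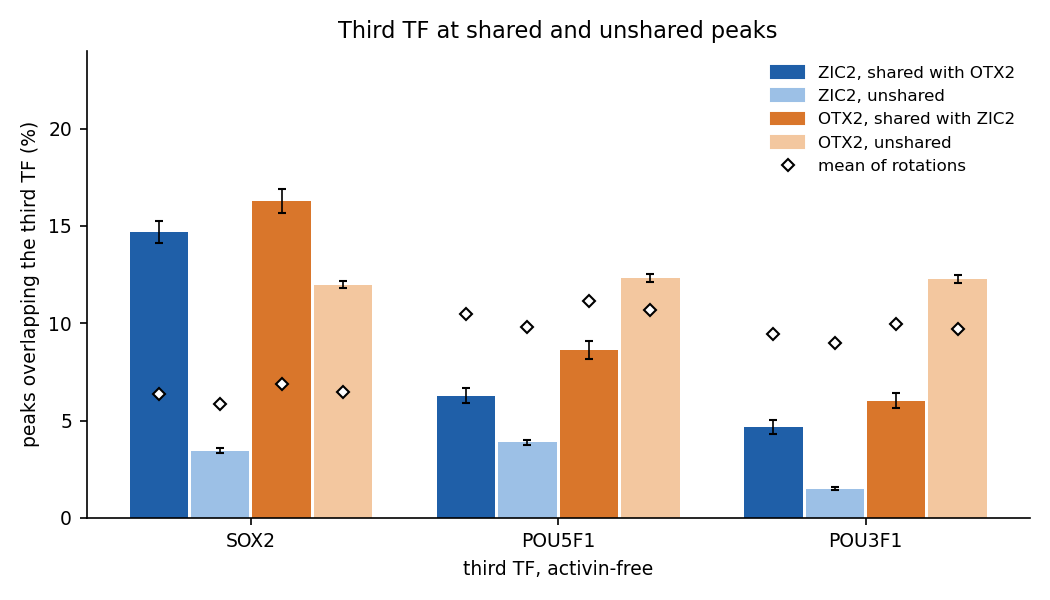
Share of shared and unshared ZIC2 and OTX2 peaks that overlap a peak of SOX2, POU5F1 or POU3F1 without activin (vertical axis, %). Bars carry 95% Wilson intervals (counting error only) and diamonds are the means of rotations; SOX2 exceeds its diamond at both shared classes, and POU5F1 and POU3F1 stay below theirs.

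Most pairs had peaks of both TFs in the activin culture too. A ZIC2 and an OTX2 peak of that culture overlapped the pair in 11985 of 14625 cases (81.9%), a ZIC2 peak alone in 11.2%, an OTX2 peak alone in 5.81% and neither in 1.07%. An overlapping pair over the same bases was present for 72.6%. In the other direction 54.6% of the 19445 pairs of the activin culture had an activin-free pair. Pairs with both TFs in the activin culture had a median lower score of 122.55, against 61.1 for the 156 pairs with neither. For single peaks, 92.9% of shared and 90.9% of unshared ZIC2 peaks had a ZIC2 peak in the activin culture. OTX2 differed between the classes, with 87.4% (86.8 to 87.9%) of shared and 64.8% (64.5 to 65.1%) of unshared peaks having an OTX2 peak there. The score classes differ as well, so that the part of peak strength in this contrast was not tested.

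High scores of one TF did not go with high scores of the other within pairs. Spearman's rho of the paired scores was −0.01 over 14625 pairs, given as a description. Both scores were 100 or more in 7638 pairs (52.2%), 500 or more in 654 and 1000 or more in 84 (0.574%).

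The 5 pairs with the highest lower score included 3 at promoters. At Cltc (clathrin heavy chain) the ZIC2 peak had a score of 3217.5 and the OTX2 peak 2956.2, with midpoints 2112 bp apart. At Stk35 (a kinase gene) the scores were 2501.88 and 3100, and at Setd5 (a SET-domain gene) 2269.66 and 2627.82. In these 3 pairs the OTX2 peak was 3799 to 6442 bp wide and the ZIC2 midpoint lay at the promoter, as in the promoter profile. The highest pair of all lay over a coding exon of 1700030F18Rik (chr15:99772135-99774160), with 3100 for both TFs and also 3100 and 2861.78 in the activin culture. The second, at chr17:4626084-4626733, was 367.923 kb from the nearest protein-coding TSS, that of Arid1b, and all 5 TFs had a peak there in both cultures, with scores of 601.42 to 3170.16.

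Genes were assigned by the midpoint of the shared bases. Where a gene had several TSSs, its count of sites or peaks was the highest at any single TSS. Sites near different TSSs of a gene were not added up. A shared site lay within 5 kb of a TSS of 6249 of the 22350 protein-coding genes (28.0%), and within 50 kb of 13625 (61.0%). A ZIC2 peak lay within 5 kb of 74.8% and an OTX2 peak of 57.0%, while 21.1% had both without a shared site and 17.1% had neither. Within 50 kb these shares were 91.6%, 95.1%, 28.4% and 2.69%. Only 18.1% of genes had a shared site within 5 kb when scores of at least 100 were asked of both peaks, and 6.33% when 50% of each peak had to overlap. As single lists come near most genes, the lists below are read against these shares.

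Genes of FGF signalling, which EpiSCs need for self-renewal, had a shared site within 5 kb in 10 of 15 cases and within 50 kb in 13. Those of Nodal and activin signalling had 9 and 14 of 20, and the pluripotency genes common to the naive and primed states 7 and 11 of 11. Primitive streak and endoderm genes had 8 and 13 of 16, neural plate and forebrain genes 7 and 12 of 16, and Wnt genes 4 and 8 of 11. Primed epiblast genes had 4 and 8 of 12, and naive pluripotency genes 3 and 4 of 10. The primed counts include pairs at the Zic2 coding exons, where plasmid DNA can give signal in the ZIC2 list. The source of the OTX2 signal there was not tested. The strongest pair of Zic2, also the strongest within 50 kb of Zic5, had the scores found over those exons (3100 and 1449.88). Sox1 and Tfcp2l1 had no match in the annotation, and Fgf5, Lef1 and Wnt3 each belong to 2 lists. Of these 8 lists all but the naive genes, with a median of 4, had more ZIC2 peaks within 50 kb than the median of 6 for all genes. The medians were 8.5 for primed epiblast, 9 for FGF, 10.5 for Nodal, 13.5 for neural, 14 for shared pluripotency, 15.5 for streak and endoderm and 16 for Wnt genes. The OTX2 medians lay between 4.5 and 7, against 6 for all genes. The part of this in the counts was not tested. Genes with symbols starting Rpl or Rps plus a number, taken for ribosomal protein genes, had 42 and 98 of 144. Choice by symbol can also take in genes of other kinds. Olfactory receptor genes, silent outside the nose, had 2 and 107 of 1113.

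**Figure D5:**
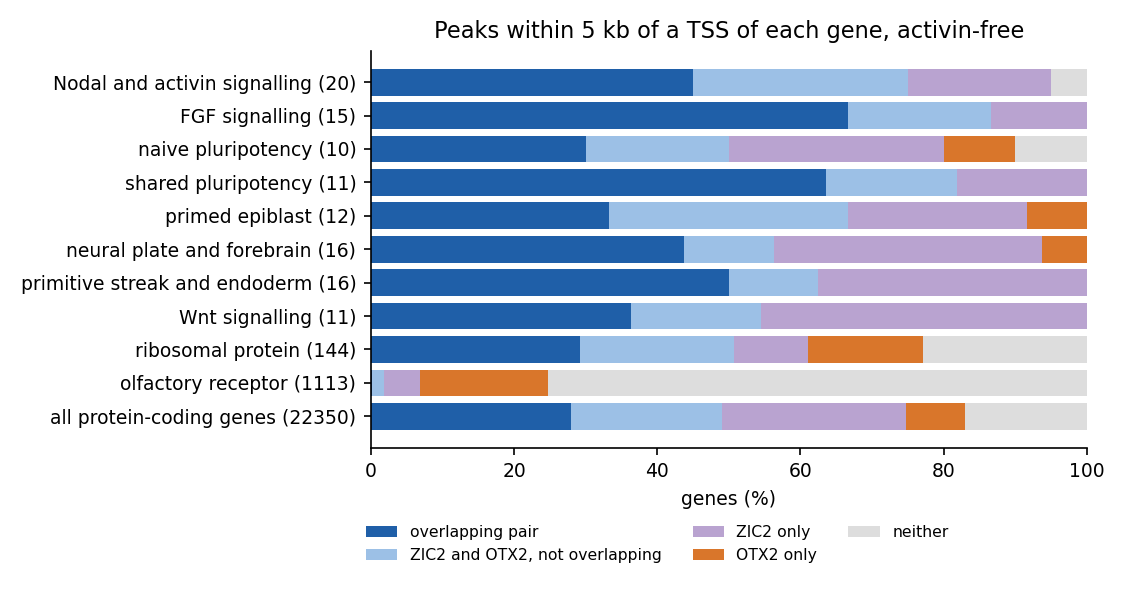
Share of the genes of each list (horizontal axis, %, with the number of genes in brackets) by what lies within 5 kb of a TSS without activin: an overlapping ZIC2 and OTX2 pair, both TFs without overlap, 1 TF alone, or neither. FGF signalling and shared pluripotency genes have overlapping pairs at 10 of 15 and 7 of 11 genes, against 28.0% of all protein-coding genes. The ribosomal protein list was chosen by symbol (Rpl or Rps plus a number).

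Among the ligands of the activin type, Nodal itself had 5 shared sites within 50 kb, the strongest with 3100 for ZIC2 and 652.39 for OTX2 at the window printed above, and another 1.838 kb from its TSS. Gdf3 had 1, with scores of 71.37 and 90.31, and Inhba, which encodes the subunit of activin A, had none. The co-receptor gene Tdgf1 (Cripto) had a pair 1.252 kb from its TSS with scores of 1154.69 and 491.67 and midpoints only 94 bp apart. Of the receptor genes, Acvr2a had a weak pair at its promoter (153.04 and 229.33), and Acvr1b had 3 pairs within 50 kb. The ligand antagonists differed, as Lefty2 had 3 shared sites within 50 kb whereas Lefty1 had 21 ZIC2 and 2 OTX2 peaks that never overlapped. Fst, the gene of the activin-binding protein follistatin, had 1 ZIC2 and 3 OTX2 peaks without overlap.

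Genes that act inside the cell had pairs of widely different scores. Skil, which encodes the SMAD repressor SnoN, had scores of 3100 and 853.26, and Foxh1, the DNA-binding partner of SMAD proteins, had 6 shared sites within 50 kb, of which 5 were within 5 kb and the strongest had 1197.85 and 184.08. The midpoints of the Skil pair lay 2996 bp apart and those of the strongest Foxh1 pair 1123 bp. Smad3 had a pair of 296.75 and 110.68. Furin, the gene of a protease that processes Nodal, had 6 shared sites, but with OTX2 at only 229.32 in the strongest.

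FGF genes were marked at ligands and at feedback genes. Fgf5, the classical marker of the primed epiblast, had 3 shared sites within 50 kb of 7 ZIC2 and 5 OTX2 peaks, and the strongest had scores of 2070.01 and 529.7 with midpoints 144 bp apart. Fgf15 had a pair of 771.6 and 1027.63 at 2.134 kb, which was also the strongest within 50 kb of the neighbouring Fgf4. Fgf4 had no shared site within 5 kb, where ZIC2 had 3 peaks and OTX2 1, and the printed Fgf4 window belongs to one of those ZIC2 peaks. At Fgf8 there were 5 ZIC2 peaks and no OTX2 peak within 5 kb. The feedback inhibitors Dusp6 and Spry2 had pairs with strong ZIC2 and weak OTX2 scores, 3100 and 98.07 at Dusp6 and 1120.23 and 119.08 at Spry2. Etv4, an ETS target of FGF, had 6 shared sites within 50 kb, and neither Etv1 nor Spry1 had any.

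Pluripotency genes had a shared site within 50 kb throughout the list common to both states. Sall4 had 6, and its strongest pair (3100 and 2188.31) had the highest lower score among the members of the 8 gene lists. The midpoints of that pair lay 2498 bp apart, and those of the strongest Pou5f1 pair 2211 bp. Pou5f1 had 8 within 50 kb, where the ZIC2 score of 3100 lies in part over its coding exons, which ZIC2 peaks covered to 62.6%. Mycn had scores of 3100 and 191.37, Utf1 of 881.6 and 1599.03, and Sox2 of 2032.21 and 451.44 at 7.405 kb. The midpoints of these pairs lay 1142, 2485 and 211 bp apart, respectively. Nanog had 3 shared sites, of which the strongest lay 37.173 kb away in an intron of Slc2a3. Of the naive genes, Klf5, Esrrb and Nr5a2 had a shared site within 5 kb, Tbx3 had 3 within 50 kb but none within 5 kb, and Klf2, Klf4, Nr0b1, Prdm14, Zfp42 and Dppa3 had none within 50 kb.

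Primed epiblast and neural genes included loci where ZIC2 stood alone. Otx2 had 4 OTX2 peaks and no ZIC2 peak within 5 kb, and its 4 shared sites lay 6.184 kb or more from the TSS. The OTX2 list covered 100% of the Otx2 coding bases, where plasmid DNA gives signal. The part of plasmid DNA in these OTX2 peaks was not tested. Dnmt3b had 5 shared sites within 50 kb, and the strongest had scores of 879.9 and 1090.31. Sox3, Sox11 and Cdh2 were among those with none. Among the regulators of the anterior neural plate, Six3 had 5 ZIC2 peaks and no OTX2 peak within 5 kb, and Rax and Zic1 had 3 and 1 ZIC2 peaks there without OTX2. None of these 3 genes had a shared site within 50 kb. Gbx2, which marks the hindbrain side of the boundary with Otx2, had 5 shared sites, the strongest with 1915.4 and 631.29. Hesx1 was the neural gene with OTX2 but no ZIC2 peak within 5 kb. Pax6 had 2 shared sites, with 274.69 and 135.89 in the strongest.

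Streak and Wnt genes had pairs at several loci. T (Brachyury) had a pair of 2752.84 and 351.29 at 4.772 kb, Gsc of 1392.97 and 172.91 at 2.711 kb, and Eomes of 1486.76 and 385.89 at 7.992 kb, while Evx1 had 7 shared sites within 50 kb and Lhx1 6. Mixl1 had a pair of 3100 and 563.79 at 29.801 kb, and Snai1 had 27 ZIC2 and 5 OTX2 peaks within 50 kb with none shared. The midpoints of the Mixl1 pair lay 2746 bp apart, against 355 bp for T, 198 bp for Gsc and 396 bp for Eomes. Of the Wnt ligands, Wnt3 had 5 shared sites and Wnt3a none among 25 ZIC2 and 2 OTX2 peaks. The Wnt effector gene Ctnnb1 (β-catenin) had none, and the receptor gene Fzd7 had 5, the strongest with 993.67 and 530.26.

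Pairs were spread over many genes. By nearest protein-coding TSS, 8587 genes received at least 1 pair, 5165 of them exactly 1, and 279 received 5 or more. The 10 genes with the highest numbers held 114 pairs, or 0.779% of all. These were Dab2ip, Odz4 and Rybp with 13 each, Rnf220 with 12, Abr, Bcas3 and Rptor with 11, and Gm10655, Grik3 and Rora with 10, a number that Rragc also had. The shares differed by list, as 18.1% of 72 ZIC2 peaks but 64.7% of 17 OTX2 peaks nearest to Dab2ip were shared, against 32.0% of 25 and 20.8% of 48 at Rora, a nuclear receptor gene. At Rybp, a gene of a Polycomb component, the pairs lay far off, with a median distance of 94.6 kb.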

How the data were processed

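Peak lists of ZIC2 and OTX2 ChIP-seq in activin-free EpiSCs were compared, with the other 8 lists of the series for context. The authors aligned their reads by Bowtie2 (genome build mm9), and MACS1.4 gave the peaks, with sequenced EpiSC input as its control. The input is labelled for the activin culture, and whether it also served for the activin-free lists is not given in the sources used here. The deposited lists hold positions in bp and a score for each peak, which the authors left as MACS gives it, the negative decadic logarithm of the p-value times 10. They contain no reads, so that depth is unknown and weak peaks of unequal libraries cannot be matched. The input was not analysed here.

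Positions are given from 1. Overlap was counted from 1 bp. The OTX2 list was rotated 1000 times along each chromosome by at least 1 Mb, and means, SDs and ranges are given without p-values. Genes, exons and 86803 distinct TSSs were from GENCODE vM1 on mm9. A promoter was 1 kb either side of a protein-coding gene's TSS, and annotation was read at the midpoint. Motifs were searched for on both strands within 100 bp of midpoints. The overlap step was tested on simulated lists.

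Genes named are the members of 8 lists of signalling, pluripotency and lineage genes, the TF genes, and the 10 genes nearest to the most pairs. Sites named are the 5 pairs with the highest lower score, ties going to the narrower pair. Some members and sequences are not reported here. The members and lists were chosen with earlier results of these data known. The alternatives comprised other overlap rules, scores, widths, rotations and TSSs. Calculations used Python 3.11.15 with numpy 2.4.6, pandas 2.3.3, scipy 1.17.1 and matplotlib 3.10.9.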

Additional observations from a re-analysis of the deposited data

How the results depend on the processing

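Of 55 values under alternative settings for 12 results, 42 moved beyond the counting interval of the reported value, 9 did not and 4 turned to the other side of 1. Where the overlap had to cover 50% of each peak, 3.34% of ZIC2 and 3.20% of OTX2 peaks were shared, the ratio to rotations was 1.15, the score ratios of shared to unshared peaks 1.48 (ZIC2) and 1.02 (OTX2), and the width ratios 1.08 (ZIC2) and 0.968 (OTX2, reversed). Within 5 kb of a TSS were then 40.3% of shared and 38.0% of unshared ZIC2 peaks, 40.4% and 24.2% of OTX2 peaks, and shared sites of 6.33% of genes. With scores of at least 100, 9.30% of ZIC2 and 11.1% of OTX2 peaks were shared, with a ratio of 1.43, score ratios of 1.49 and 1.18, and a ZIC2 width ratio of 1.12. The TSS shares were 58.4% and 40.3% (ZIC2), 59.5% and 22.2% (OTX2), and the gene share 18.1%. The 50000 highest-scoring peaks gave 8.82%, 8.93% and a ratio of 1.57. With 500 bp around each midpoint, 5.59% of ZIC2 and 5.33% of OTX2 peaks were shared, with a ratio of 1.22, and the ZIC2 score ratio (0.942), ZIC2 width ratio (0.928) and OTX2 width ratio (0.989) reversed, while the OTX2 score ratio was 1.10. Merging peaks within 150 bp gave 13.0% of ZIC2 peaks, autosomes alone 12.3% of OTX2 peaks, and moves within segments of 1 Mb a ratio of 1.13. With protein-coding TSSs only, the TSS shares were 44.7% and 26.1% (ZIC2), 46.0% and 13.2% (OTX2), and from peak edges 53.5%, 37.6%, 54.9% and 22.8%. Genes with a shared site came to 61.0% within 50 kb and 24.9% from the most 5′ TSS alone. The causes were not tested, except that a stricter rule or fewer peaks leave fewer overlaps by construction, and fixed windows remove the greater reach of wide peaks. The overlap stayed above the rotations in all 7 settings tried for it, and the shared classes held more peaks within 5 kb of a TSS than the unshared ones in all 4 settings tried for that. No paired analysis was possible because each TF had 1 library in each culture and the labels give no replicate numbers.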

Other observations

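Some values lie outside the named genes. At Id3, a target gene of BMP signalling chosen here after its values were seen, 9 of 12 ZIC2 peaks (75%) and 8 of 11 OTX2 peaks (72.7%) nearest to its TSS were shared, and they formed 9 pairs.

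The share of ZIC2 peaks that met an OTX2 list shifted by a fixed distance was not monotonic. It was 12.7% unshifted, 10.6% after 10 kb, 11.9% after 100 kb and 10.1% after 2000 kb.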
